A study of Mus musculus with 4 samples.

Results

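Ribosome biogenesis factors are the proteins that make and process ribosomal RNA and assemble it with ribosomal proteins. They were taken here by name, as the protein-coding genes of GENCODE M21 whose symbols begin with Rrp, Utp, Nop or Nol and a digit, the RNA polymerase I subunits Polr1a to Polr1e, and Ncl, Npm1, Fbl, Dkc1, Bop1, Pes1, Wdr12 and Nip7. The rule found 49 genes among the 34866 gene identifiers of the count table. All 49 had enough counts to be tested, and so did 14050 identifiers in all. The RNA came from cortical neural stem and progenitor cells, dissociated from mouse dorsal telencephalon (the forebrain wall that becomes cerebral cortex) at embryonic day E11.5. The cells were wild type by their label, were grown as floating neurospheres with basic fibroblast growth factor, and were collected at day 5. The control group (shControl, 2 libraries) received 1 lentiviral vector with a control hairpin at a multiplicity of infection of 30. The other group (2 libraries) received 3 vectors at 10 each, with hairpins against Phf21b, Zfp7 and Zfp57, and is called the triple knockdown. The control and Phf21b hairpins came in a CS-EG backbone and the Zfp7 and Zfp57 hairpins in a pLV-EG backbone, so backbone and number of vectors cannot be told apart from the knockdown. Nothing in the labels says that the libraries of a group came from separate cultures or embryos, so p-values reflect the spread among these 4 libraries alone, and that spread may be technical.

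In growing cells the nucleolus makes ribosomes by a relay. RNA polymerase I transcribes a long precursor, small nucleolar ribonucleoproteins (snoRNPs) guide its chemical modification, and 2 sets of assembly factors fold and cut it into the small and the large ribosomal subunit. Proliferating neural progenitors make ribosomes at a high rate, and production declines as cells leave the cycle to become neurons. The question addressed was where the mRNAs of these factors stood when the 3 regulators were targeted together.

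The libraries held between 14694387 and 20779211 estimated counts. Targeted genes were lower in the knockdown by 0.29 (Phf21b), 0.37 (Zfp7) and 0.40 (Zfp57) on the log2 scale, and none had an adjusted p under 0.05; the libraries overlapped for Zfp7. Levels below are in CPM, counts scaled to a common library size with edgeR's factors, and log2 fold changes are triple knockdown over shControl. Of 12 progenitor markers, which included Sox2, Pax6 and Nes, all were expressed and 0 passed the threshold, and the list summed to 23098 and 28150 CPM in the controls and 20709 and 23417 CPM in the knockdown. The 12 neuron markers summed to 1187 and 1063 CPM in the controls and 860 and 895 CPM in the knockdown. Of these, 4 passed the threshold as lower (Celf4, Neurod6, Nsg2 and Tubb3), beside 116 of all 14050 tested genes. Both knockdown libraries lay below both controls in 10 (83.3%), beside 21.7% of all tested genes. Rbfox3 (log2 fold change 0.20) and Snap25 (-0.05) overlapped between the groups. The part of neuronal content in the values below was not tested. In bulk RNA, fewer cells of a type and less RNA per cell cannot be told apart. The 12 proliferation markers had 0 genes past the threshold and a median log2 fold change of 0.06. The 6 tested of 9 erythroid markers summed to 26.2 and 29.1 CPM in the controls and 41.7 and 39.2 CPM in the knockdown, with Hbb-y past the threshold. Among those too low to test, Alas2 was at 0 in 2 libraries. The 7 tested of 10 myeloid markers summed to between 30.2 and 37.3 CPM, and the 6 tested of 9 endothelial and mesenchymal markers to between 47.4 and 50.4 CPM. Of the untested ones, Csf1r was at 0 in both controls, Cldn5 in 1 control and Kdr in 1 knockdown library. Mitochondrial genes took 30.3% and 33.9% of control counts and 26.6% and 28.5% of knockdown counts.

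Of the ribosome biogenesis factors, 1 passed an adjusted p of 0.05 in edgeR's quasi-likelihood test. That gene, Rrp15, rose 1.51-fold. This is 2.04% of the 49, beside 1.37% of all tested genes in either direction and 0.541% higher. With an unadjusted p under 0.05 there were 7, all higher in the knockdown (Rrp15, Nop16, Nip7, Polr1c, Wdr12, Nop56 and Nol9), which is 14.3% of the factors beside 5.14% of all tested genes. On the lower side 0 factors reached that mark, beside 6.85% of all tested genes. Both knockdown libraries lay above both controls in 20 factors, or 40.8%, beside 19.6% of all genes. They lay below both controls in 4 (Bop1, Nol10, Rrp7a and Utp18), or 8.16%, beside 21.7% of all genes. A log2 fold change above 0 was found in 34 of the 49, or 69.4%, beside 48.9% of all genes. Their median was 0.11, beside -0.01 over all tested genes, and the range ran from -0.45 (Nol4l) to 0.62 (Rrp12). These shares and medians are descriptions of these libraries and carry no test.

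**Figure D1:**
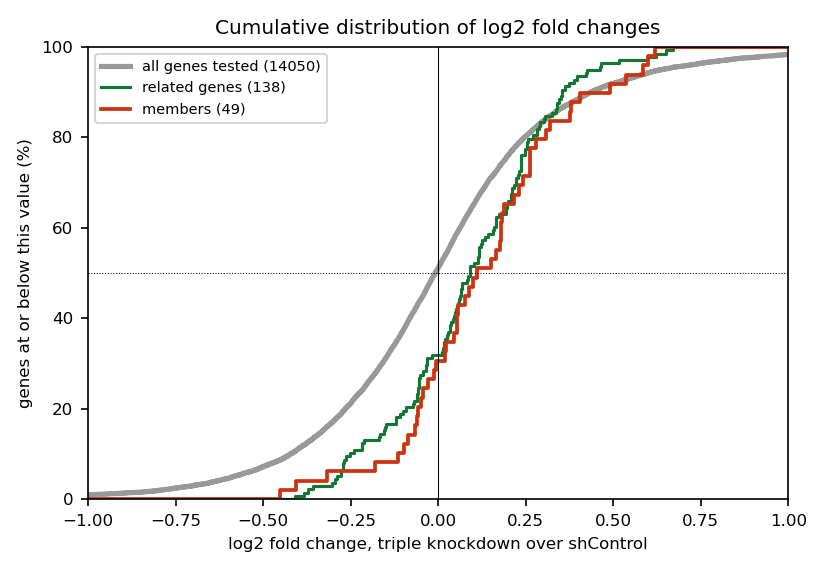
Share of genes (vertical axis, %) at or below each log2 fold change, triple knockdown over shControl (horizontal axis), for all 14050 tested genes, the 138 related genes and the 49 ribosome biogenesis factors. The curve of the factors crosses its middle at 0.11 and stays within -0.45 to 0.62, while the curve of all genes crosses near -0.01.

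The differences were of the same order as the spread between libraries of 1 group. The median absolute log2 difference between the 2 controls was 0.24 over the factors, between the 2 knockdown libraries it was 0.12, and the median absolute log2 fold change was 0.18. In 29 of the 49 factors (59.2%) the gap between the controls was larger than the fold change, beside 57.9% of all tested genes. The gap between the knockdown libraries was larger in 19 (38.8%), beside 50.3% of all tested genes. A gap compares 2 single libraries and a fold change compares 2 groups, so a gap varies more even where groups do not differ. These shares are therefore to be read beside those over all tested genes. The factors together took 0.308% and 0.261% of control counts and 0.316% and 0.338% of knockdown counts. Relative to nuclear genes alone these shares were 0.442% and 0.394% in the controls and 0.430% and 0.473% in the knockdown, where the groups overlap.

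**Figure D2:**
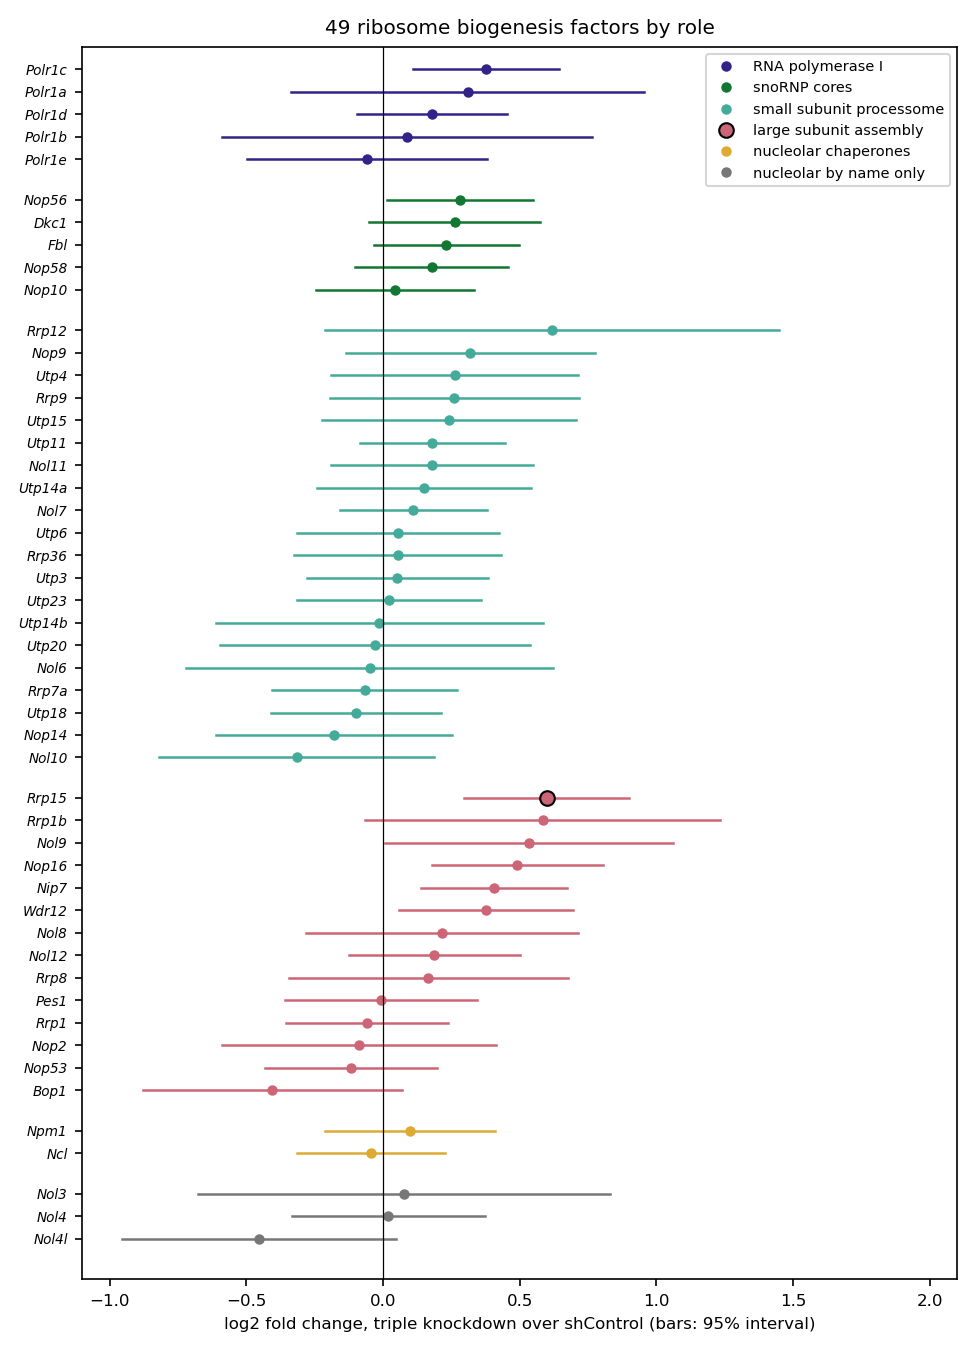
Log2 fold change of each of the 49 factors (points, with 95% intervals as bars), triple knockdown over shControl, ordered by role and then by value. Rrp15, with a black outline, is the factor past the threshold, and 34 points lie to the right of 0.

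Among the 5 subunits of RNA polymerase I, 4 (80%) had a log2 fold change above 0, beside 48.9% of all tested genes. The median was 0.18, and none passed the threshold. Leaving out shControl replicate 1 gave a median of 0.044, and leaving out shControl replicate 2 gave 0.35. Polr1c, a subunit that RNA polymerases I and III share (ENSMUSG00000067148.15, chromosome 17, 46243920 to 46248054, minus strand, GRCm38), measured 57.2 and 54.2 CPM in the controls and 72.6 and 72.1 CPM in the knockdown. Both knockdown libraries stood well above both controls, and each pair lay close together. Its log2 fold change was 0.38 ± 0.13 (SE), with an unadjusted p of 0.0064 and an adjusted p of 0.16. Polr1d, the other subunit shared by polymerases I and III, had the highest level per length of the 5, 95.03 CPM per kilobase of exon in the controls. It measured 204 and 218 CPM in the controls and 238 and 240 CPM in the knockdown, again without overlap. The groups differed by 0.18 ± 0.14 (SE) on the log2 scale, with an adjusted p of 0.66. The subunits of polymerase I alone behaved less evenly. Polr1e, a peripheral subunit, measured 6.46 and 6.16 CPM in the controls and 5.65 and 6.51 CPM in the knockdown, where the groups overlap (log2 fold change -0.06 ± 0.22 SE, adjusted p = 0.96). Polr1a and Polr1b, which form the catalytic core, were near the bottom of all factors at 0.263 and 0.514 CPM per kilobase in the controls, and their groups overlapped as well (log2 fold changes 0.31 and 0.09).

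**Figure D3:**
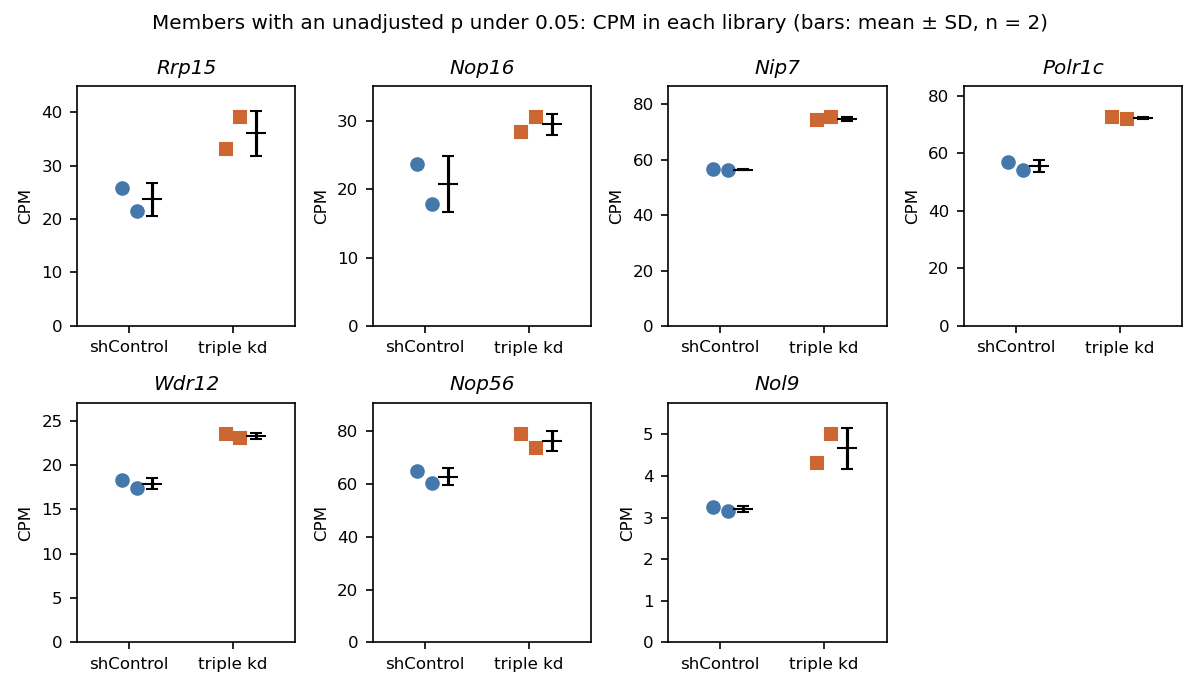
CPM in each library for the 7 factors with an unadjusted p under 0.05 (circles shControl, squares triple knockdown, horizontal lines with bars the mean ± SD, n = 2). In all 7 panels both knockdown libraries lie above both controls.

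The snoRNP core proteins sit on guide RNAs that direct methylation (box C/D) or pseudouridylation (box H/ACA) of ribosomal RNA. The rule took 5 cores. All 5 had a log2 fold change above 0, beside 48.9% of all tested genes, with a median of 0.23, and none passed the threshold. The cores outside the rule, given below with the related genes, were Gar1 (0.52), Nhp2 (0.28) and Snu13 (-0.15). Snu13 had both knockdown libraries below both controls. Nop56, a scaffold of the box C/D particle (ENSMUSG00000027405.16, chromosome 2, 130274430 to 130279313, plus strand), measured 65.1 and 60.5 CPM in the controls and 79.0 and 73.6 CPM in the knockdown. Its knockdown libraries were both higher, with a log2 fold change of 0.28 ± 0.13 (SE), an unadjusted p of 0.040 and an adjusted p of 0.38. Fbl, the methyltransferase of the same particle, measured 75.7 and 65.8 CPM in the controls and 81.7 and 84.8 CPM in the knockdown. Dkc1, the pseudouridine synthase of the H/ACA particle, measured 20.6 CPM in both controls and 24.9 and 24.4 CPM in the knockdown. Neither passed the threshold, at log2 fold changes of 0.23 and 0.26. Nop58, the partner of Nop56, overlapped between groups, with 48.1 and 40.2 CPM against 47.8 and 52.4 CPM. Nop10, the smallest H/ACA core protein, had the highest level per length of the 5, 391 CPM per kilobase in the controls, and the smallest difference. It measured 380 and 487 CPM in the controls and 466 and 427 CPM in the knockdown, so that both knockdown values fell between the controls (log2 fold change 0.04 ± 0.15 SE, adjusted p = 0.95).

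Several of these genes also carry snoRNA genes in their introns. For Nop56 and Nop58, 1 primary transcript holds both a box C/D core protein and snoRNAs with box C and box D letters. By GENCODE M21, 5 of the 49 factors (Dkc1, Ncl, Nop53, Nop56 and Nop58) held 14 snoRNAs on their own strand in an intron. That is 10.2% of the factors, beside 1.85% of the 13452 protein-coding genes tested (249 genes). The 5 host genes had a median log2 fold change of 0.18, with 3 above 0, and the 249 had 0.02, with 134 above 0. Of the 14 snoRNAs, 6 carried the box C letters TGATGA near one end and the box D letters CTGA near the other, 2 carried ACA near the 3′ end, and 6 matched neither spelling in full. Gm24451 in Nop56 carried ACA, and Gm25520, the snoRNA of Dkc1, matched neither. No snoRNA row of these hosts was analysed here. The sequences below, from GENCODE M21 transcripts, show 3 box C/D guides and 1 H/ACA guide of Nop56, Nop58 and Ncl, 5′ to 3′ and written as DNA, with those letters in capitals. They lie in GRCm38 at chr2:130275506-130275573 (plus), chr1:59704790-59704873 (plus), chr1:86356261-86356330 (minus) and chr1:86351169-86351301 (minus).
Snord110, in Nop56: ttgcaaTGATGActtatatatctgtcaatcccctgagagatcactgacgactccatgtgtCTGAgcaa
Snord11, in Nop58: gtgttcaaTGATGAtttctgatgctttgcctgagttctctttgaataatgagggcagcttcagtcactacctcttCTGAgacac
Snord82, in Ncl: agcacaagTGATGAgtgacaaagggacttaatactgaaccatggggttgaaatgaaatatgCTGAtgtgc
Snora75, in Ncl: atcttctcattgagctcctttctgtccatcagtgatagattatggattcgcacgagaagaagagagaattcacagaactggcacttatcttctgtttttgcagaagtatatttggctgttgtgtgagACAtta

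The largest role, with 20 genes, was the small subunit processome, the particle that forms on the precursor as it is transcribed and releases the small subunit. Its median log2 fold change was 0.05, and none had an unadjusted p under 0.05. Of the 20, 13 (65%) were above 0, 7 (35%) had both knockdown libraries above both controls and 3 (15%) both below. Over all tested genes these shares were 48.9%, 19.6% and 21.7%. Rrp12, a HEAT-repeat protein of the pre-small subunit, had the largest log2 fold change of all 49 factors and also the lowest count of any, with 18 to 38 counts per library. It measured 0.836 and 1.88 CPM in the controls and 2.03 and 1.95 CPM in the knockdown. The controls differed from each other by more than the second control differed from the knockdown, and the log2 fold change of 0.62 ± 0.42 (SE) had an adjusted p of 0.60. It was 0.082 without shControl replicate 1 and 1.26 without replicate 2. Nol10, a WD-repeat protein of the processome, stood at the other end, with 5.25 and 4.28 CPM in the controls and 3.998 and 3.71 CPM in the knockdown. Its libraries were lower without overlap, and the log2 fold change was -0.32 ± 0.25 (SE, adjusted p = 0.68). Nol7 had the highest level per length of the 20, 66.9 CPM per kilobase in the controls. It measured 131 and 118 CPM in the controls and 133 and 136 CPM in the knockdown, just above both controls (log2 fold change 0.11 ± 0.13 SE, adjusted p = 0.82). The other genes of this role lay between -0.18 (Nop14) and 0.32 (Nop9). Nop9, Rrp9, Utp11, Nol11 and Utp14a had both knockdown libraries above the controls, and Utp18 and Rrp7a both below. Utp3, Utp4, Utp6, Utp14b, Utp15, Utp20, Utp23, Nol6, Nop14 and Rrp36 overlapped between the groups.

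Within the processome the factors belong to smaller complexes, which were grouped here after their values had been seen and so carry no test. The t-UTP complex loads first and is tied to transcription of the precursor. Its 3 factors Utp4, Utp15 and Nol11 had log2 fold changes of 0.26, 0.24 and 0.18. With the related subunits Heatr1 (0.65), Wdr43 (0.34) and Wdr75 (0.30), all 6 were above 0 and the median was 0.28. Only 3 of the 6 had separated libraries, all higher in the knockdown, beside 19.6% of all tested genes. Heatr1 measured 2.00 and 4.51 CPM in the controls and 4.64 and 5.15 CPM in the knockdown, with shControl replicate 1 apart from the other 3 libraries. The UtpB complex, which holds Utp6 and Utp18, had a median of 0.04 over 6 subunits, and the UtpC factors Nol6 and Rrp7a were at -0.05 and -0.07. No subunit of these 3 complexes passed the threshold with all 4 libraries. Heatr1 was at 0.11 without shControl replicate 1, and at 1.30 without replicate 2, where it passed (adjusted p = 0.0033). Utp4 ranged from 0.039 to 0.61 with 1 library left out.

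**Figure D4:**
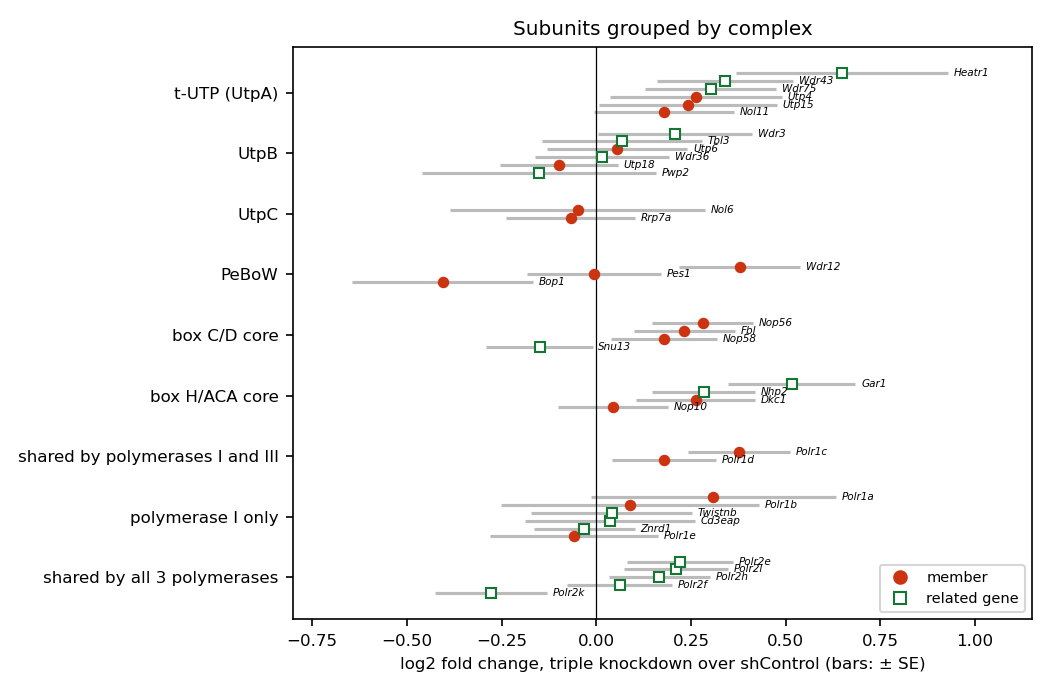
Log2 fold change, triple knockdown over shControl, with the standard error as bars, for subunits of complexes that hold at least 1 of the factors, and for the subunits shared by all 3 polymerases (filled circles the factors, open squares related genes). The 6 t-UTP subunits lie between 0.18 and 0.65, and the 3 PeBoW subunits between -0.41 and 0.38.

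Large subunit assembly held 14 factors, among them Rrp15, and 5 of the 7 factors with an unadjusted p under 0.05. Its median log2 fold change was 0.20, with 9 of 14 (64.3%) above 0, beside 48.9% of all tested genes. Both knockdown libraries lay above both controls in 8 (57.1%), beside 19.6% of all tested genes. Rrp15 is a nucleolar protein of the pre-large subunit (ENSMUSG00000001305.5, chromosome 1, 186720978 to 186749358, minus strand). It measured 25.8 and 21.5 CPM in the controls and 33.0 and 39.0 CPM in the knockdown, from 286 to 620 counts per library. The knockdown libraries were both higher, and the libraries of each group were spread more than those of Nip7 or Polr1c. The log2 fold change was 0.60 ± 0.15 (SE), or 1.51-fold with a 95% interval of 1.23 to 1.87, and the adjusted p was 0.019. This call was lost in 4 of the 12 alternative settings: with library size alone for scaling (adjusted p = 0.13), in DESeq2 (adjusted p = 0.24), and without triple knockdown replicate 1 (adjusted p = 0.14) or replicate 2 (adjusted p = 0.50), all at log2 fold changes between 0.48 and 0.72.

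Nop16, another protein of the early large subunit (ENSMUSG00000025869.11, chromosome 13, 54584185 to 54590090, minus strand), measured 23.7 and 17.9 CPM in the controls and 28.5 and 30.6 CPM in the knockdown. All knockdown values were higher, and the log2 fold change of 0.49 ± 0.16 (SE) had an adjusted p of 0.10. Without shControl replicate 1 it was 0.72, with an adjusted p of 0.0046. Nip7, needed for the processing of the precursor toward the large subunit (ENSMUSG00000031917.12, chromosome 8, 107056877 to 107060931, plus strand), had the tightest replicates of the 7. It measured 56.5 and 56.4 CPM in the controls and 74.2 and 75.3 CPM in the knockdown, a log2 fold change of 0.41 ± 0.13 (SE) with an unadjusted p of 0.0034 and an adjusted p of 0.13. Nol9, a polynucleotide kinase that acts on a processing intermediate (ENSMUSG00000028948.16, chromosome 4, 152039321 to 152061494, plus strand), measured 3.25 and 3.16 CPM in the controls and 4.32 and 5.02 CPM in the knockdown. It was higher in both knockdown libraries at a log2 fold change of 0.54 ± 0.27 (SE), with an unadjusted p of 0.047 and an adjusted p of 0.41. Rrp1 had the highest level per kilobase of exon in this role, 18.9 CPM in the controls, followed by Nip7 at 18.6, and per kilobase of coding sequence Nip7 came first, at 105 CPM. Rrp1 measured 44.3 and 30.6 CPM in the controls and 35.2 and 37.3 CPM in the knockdown, with both knockdown values between the controls (log2 fold change -0.06 ± 0.15 SE, adjusted p = 0.93). Of the rest, Rrp1b (0.58), Nol8 (0.22) and Nol12 (0.19) had both knockdown libraries above the controls, and Rrp8, Nop2 and Nop53 overlapped.

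The PeBoW complex of Pes1, Bop1 and Wdr12 acts as a unit in the maturation of the large subunit, and its 3 mRNAs did not share a direction. Wdr12 (ENSMUSG00000026019.15, chromosome 1, 60069785 to 60098645, minus strand) measured 18.3 and 17.4 CPM in the controls and 23.5 and 23.1 CPM in the knockdown, higher in both. Bop1 (ENSMUSG00000022557.11, chromosome 15, 76452989 to 76477277, minus strand) measured 5.85 and 5.93 CPM in the controls and 5.12 and 3.71 CPM in the knockdown, lower in both. Pes1 measured 15.8 and 11.49 CPM in the controls and 13.8 and 13.7 CPM in the knockdown, within the controls. Their log2 fold changes were 0.38 ± 0.16 (SE, adjusted p = 0.29) for Wdr12, -0.41 ± 0.24 (SE, adjusted p = 0.51) for Bop1 and -0.01 ± 0.18 (SE, adjusted p = 0.99) for Pes1. Bop1 ranged from -0.66 to -0.20 with 1 library left out. The ratio of Wdr12 to Bop1 was 3.14 and 2.94 in the controls and 4.59 and 6.21 in the knockdown. This pair was picked after its values were seen, so the ratio is given without a test.

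Npm1 and Ncl, the abundant chaperones of the nucleolus, together made up between 44.02% and 49.7% of the counts of all 49 factors in a library. Npm1 had the highest level of all factors per kilobase of exon, 634 CPM in the controls, and came after Nop10 per kilobase of coding sequence (1470 and 2256 CPM). It measured 1344 and 1233 CPM in the controls and 1219 and 1539 CPM in the knockdown, and the knockdown libraries lay on both sides of the controls (log2 fold change 0.10 ± 0.16 SE, adjusted p = 0.87). Ncl measured 131 and 106 CPM in the controls and 108 and 123 CPM in the knockdown, within the controls (log2 fold change -0.04 ± 0.14 SE, adjusted p = 0.94). The summed share of the factors is therefore set in large part by genes whose groups overlapped.

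The symbols Nol3, Nol4 and Nol4l carry the nucleolar name without a known step in ribosome assembly, and were kept because the rule takes them. Nol3, an inhibitor of cell death, measured 2.00 and 1.65 CPM in the controls and 1.76 and 2.15 CPM in the knockdown (log2 fold change 0.08 ± 0.38 SE, adjusted p = 0.97). Nol4, the highest of the 3 per length at 2.42 CPM per kilobase in the controls, measured 12.9 and 12.2 CPM in the controls and 12.7 and 12.8 CPM in the knockdown (log2 fold change 0.02 ± 0.18 SE, adjusted p = 0.98). Nol4l measured 4.23 and 7.06 CPM in the controls and 3.73 and 4.36 CPM in the knockdown, the lowest log2 fold change of the 49 at -0.45 ± 0.25 (SE, adjusted p = 0.48). The fold change of Nol4l was -0.055 without shControl replicate 2 and -0.81 without replicate 1, so its place as lowest rests on 1 control library. All 3 overlapped between groups. Over the 46 factors with a role in assembly the median was 0.16, with 32 above 0.

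Some factors share sequence or exons with other genes, which an estimated count divides by a model. More than 20% of the 31-base words of the transcripts also occurred in another gene for Nol3 (46.8%), Pes1 (34.8%), Npm1 (29.4%), Nop9 (28.7%), Nop56 (22.4%), Fbl (21.8%) and Rrp7a (20.3%). Exons of Nol3 and Nop9 overlapped an antisense gene over 48.2% and 30.8% of their length. Words were matched on either strand. The values of these 7 genes are less certain for that reason, by an amount that was not measured. Rrp15 shared 3.15% of its words and Polr1c 0%. Per kilobase of exon, control levels of the factors ran from 0.263 CPM (Polr1a) to 634 CPM (Npm1). Levels in CPM, not divided by length, were higher in shorter genes. The Spearman correlation of exonic length with that control level was -0.51 over the 49 factors and -0.17 over all protein-coding genes tested. Length was also related to the ratio of control 1 to control 2, at -0.30 for the factors and -0.25 for all protein-coding genes. It was hardly related to the log2 fold change, at -0.08 and -0.05. These correlations are across genes, which are not independent replicates.

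The 49 factors lie on 18 chromosomes. Only 3 pairs lie within 1 megabase of each other: Nip7 and Utp4 on chromosome 8, 133.8 kilobases apart, Nop58 and Wdr12 on chromosome 1, 350.7 kilobases apart, and Polr1c and Rrp36 on chromosome 17, 418.3 kilobases apart. The log2 fold changes within a pair were 0.41 and 0.26, 0.18 and 0.38, and 0.38 and 0.05. RefSeq promoter windows of GRCm38.p6, from 250 bases before to 50 bases after a gene's start, were given for 38 of the 49. Both strands were searched for CACGTG, the E-box that MYC and its partners bind, CCGGAAG, a core of ETS family sites, and TGCCGC, the hexamer that ZFP57 binds when methylated. None of these spellings contains another. CACGTG was found in 8 of 38 factors (Nol11, Nop2, Pes1, Rrp7a, Utp14b, Utp18, Utp20 and Utp4), or 21.1%, beside 11.2% of 10511 protein-coding genes tested. It was found in 0 of the 7 factors with an unadjusted p under 0.05. CCGGAAG was found in 12 of 38, or 31.6%, beside 19.0%, and 3 of those 12 were among the 7 (Nip7, Polr1c and Rrp15). TGCCGC was found in 8 of 38, or 21.1%, beside 21.7%, and in 1 of the 7 (Wdr12). A match describes letters and not a bound site.

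The 100 bases before the RefSeq start are shown as examples for Rrp15, the factor past the threshold, for Polr1c, and for 3 factors with CACGTG there. Utp14b also held CACGTG in these bases and is not shown. The examples show how the letters lie relative to the start. Each runs 5′ to 3′ toward the start, with CACGTG and CCGGAAG, or the reverse complement of the latter, in capitals. The windows are chr1:186749359-186749458 (minus), chr17:46248046-46248145 (minus), chr6:125131783-125131882 (plus), chr11:107189382-107189481 (minus) and chr11:93885767-93885866 (minus) in GRCm38.p6.
Rrp15: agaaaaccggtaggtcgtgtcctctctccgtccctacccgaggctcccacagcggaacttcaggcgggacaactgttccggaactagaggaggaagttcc
Polr1c: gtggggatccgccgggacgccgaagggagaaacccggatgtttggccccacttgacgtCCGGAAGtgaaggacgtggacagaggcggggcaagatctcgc
Nop2: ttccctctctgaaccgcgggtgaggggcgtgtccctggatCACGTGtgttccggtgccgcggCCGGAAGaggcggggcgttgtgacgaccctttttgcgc
Nol11: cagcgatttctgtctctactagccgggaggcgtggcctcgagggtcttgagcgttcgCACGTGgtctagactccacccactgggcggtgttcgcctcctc
Utp18: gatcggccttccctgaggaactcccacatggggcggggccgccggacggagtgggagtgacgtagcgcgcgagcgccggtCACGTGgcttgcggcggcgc
In these 100 bases Rrp15 held neither motif, its CCGGAAG match lying 34 bases after the start. The 3 factors shown with CACGTG had log2 fold changes of -0.09 (Nop2), 0.18 (Nol11) and -0.10 (Utp18). The others of the 8 with CACGTG in the full promoter window were Utp14b (-0.01), Pes1 (-0.01), Rrp7a (-0.07), Utp20 (-0.03) and Utp4 (0.26). A link between these letters and the fold change was not tested.

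Other genes of the pathway were read from 6 lists with 138 genes, all tested. None passed the threshold in edgeR, DESeq2 or limma-voom, 13 had an unadjusted p under 0.05 on the higher side and 2 on the lower, and 94 (68.1%) had a log2 fold change above 0. Their median was 0.09. Without shControl replicate 1 or replicate 2, 4 and 3 of them passed. Over all tested genes, 5.14% had an unadjusted p under 0.05 on the higher side, 6.85% on the lower, and 48.9% a log2 fold change above 0. Both knockdown libraries lay above the controls in 19.6% of all tested genes and below in 21.7%, beside 32.6% and 9.42% of the 138. Small subunit assembly was the most one-sided list, with 30 of 37 genes (81.1%) above 0 and a median of 0.16. It had 16 genes (43.2%) with both knockdown libraries above the controls against 0 below. Its smallest p-values belonged to Dcaf13 (log2 fold change 0.42, adjusted p = 0.12) and Emg1 (0.34, adjusted p = 0.23). Large subunit assembly had 34 of 46 above 0 and a median of 0.12, with Mrto4 at 0.35 and Senp3 at -0.36 (adjusted p = 0.26 and 0.37). The RNA exosome, which trims the precursor, had 10 of 14 above 0 and a median of 0.24, with Exosc1 at 0.40 and Exosc8 at 0.28 (adjusted p = 0.21 and 0.37). RNA polymerase I partners had 11 of 15 above 0 and a median of 0.06, with Ttf1 at 0.46 and Polr2k at -0.28 (adjusted p = 0.45 and 0.46).

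The snoRNP assembly list had 6 of 14 above 0 and a median of -0.05, beside 0.23 for the 5 cores that the rule took. Of its 14 genes, 3 (21.4%) had both knockdown libraries above the controls and 4 (28.6%) had both below (Rpap3 -0.38, Shq1 -0.27, Pih1d1 -0.25 and Snu13 -0.15). The shares over all tested genes were 19.6% and 21.7%. Snu13, the remaining box C/D core protein, averaged 333 CPM in the controls and 300.2 CPM in the knockdown (adjusted p = 0.74). The smallest p-values belonged to the remaining H/ACA core proteins. Gar1 measured 16.8 and 12.5 CPM in the controls and 20.79 and 21.6 CPM in the knockdown (log2 fold change 0.52, adjusted p = 0.11). Nhp2 measured 168 and 175 CPM in the controls and 214 and 203 CPM in the knockdown (log2 fold change 0.28, adjusted p = 0.39). The upstream regulators, MYC family members, their MAX network partners and the p53 axis, had 9 of 12 below 0 and a median of -0.23. The 3 above 0 were Mxd1 (0.21), Mycn (0.14) and Trp53 (0.05). The list mixes genes of different roles, so its median does not measure their activity. Mycl measured 9.61 and 9.84 CPM in the controls and 8.42 and 6.12 CPM in the knockdown (log2 fold change -0.41, adjusted p = 0.40), and Mxi1 8.96 and 9.69 CPM against 7.94 and 6.38 CPM (-0.37, adjusted p = 0.47). Of these 12 regulators, 25% had a log2 fold change above 0, beside 48.9% of all tested genes. None of the 12 had both knockdown libraries above the controls, and 5 (41.7%) had both below, beside 19.6% and 21.7% of all tested genes. The cytosolic ribosomal protein genes, taken by symbol, had 82 tested and 0 past the threshold in edgeR. Of the 82, 3 (3.66%) had an unadjusted p under 0.05, all higher, beside 5.14% of all tested genes. A log2 fold change above 0 was found in 71 (86.6%), beside 48.9% of all genes, and the median was 0.13. Both knockdown libraries lay above the controls in 36 (43.9%) and below in 0, beside 19.6% and 21.7% of all genes.

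**Figure D5:**
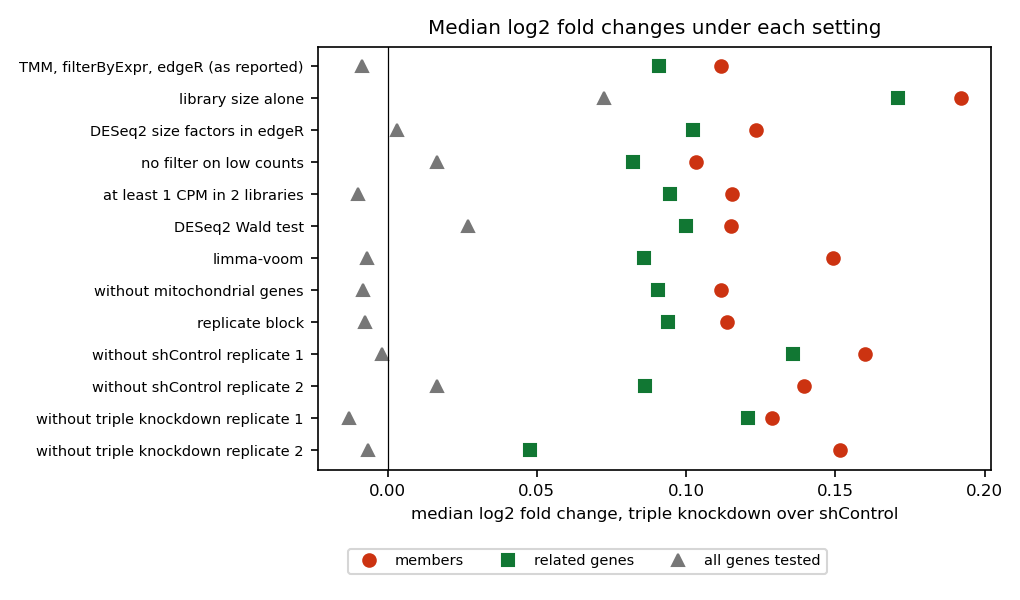
Median log2 fold change, triple knockdown over shControl (horizontal axis), of the 49 factors, the 138 related genes and all tested genes under the reported setting and each of 12 alternatives (vertical axis). The factors lie between 0.10 and 0.19 and all tested genes between -0.01 and 0.07.

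The sign of single factors depended on the setting more than the median did. Over the reported setting and 12 alternatives, the factors' median stayed between 0.10 and 0.19. A log2 fold change above 0 in every setting was found for 25 factors and below 0 in every setting for 4 (Bop1, Nol10, Nol4l and Utp18), while 20 changed sign at least once. The 7 factors with an unadjusted p under 0.05 were among the 25. They were picked on the same 4 libraries that the settings reuse, so this is not separate support.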

How the data were processed

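The authors deposited estimated counts per gene for 4 libraries, without normalization, made with Salmon on GRCm38 or mm10 according to the submitters' processing notes. Salmon's version, the gene annotation, the summing of transcripts and the strandedness were not given in the sources used here. Per the labels' protocols, total RNA was made into libraries with the NEBNext Ultra II kit. Values that were not whole (23.1% to 25.1% per library) were rounded before testing. Of 34866 identifiers, 34652 matched GENCODE M21 without their version, 32644 with the same version, and 12597 were at 0 in every library.

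The test was edgeR 4.0.16 in R 4.3.3, with TMM factors of 1.04 and 0.907 (shControl) and 1.05 and 1.01 (triple knockdown), filterByExpr with a minimum count of 10, a robust quasi-likelihood fit on group alone, a two-sided F test, and Benjamini-Hochberg adjustment over 14050 genes with a threshold of 0.05. Standard errors are the log2 fold change, without its sign, divided by the square root of F. The fit shares variance between genes: a gene alone had 2 residual degrees of freedom, and the median total was 82.5. Standard errors, intervals and p-values therefore rest mostly on that sharing, not on a gene's own replicates. Total counts were 20779211 and 14694387 in the controls and 17901386 and 15170491 in the knockdown. At this depth the lowest count of a factor was 18, and 9 factors had fewer than 50 counts in some library. With 2 libraries a side, the smallest p of an exact permutation test is 0.33. Tested on simulated data made from these libraries, the edgeR fit recovered 65 of 96 genes with a 2-fold difference and 96 of 100 with a 4-fold one. It made 12 false calls among 13815 genes. The simulated spread followed expression level alone. Smaller differences were not simulated, and the largest fold change of a factor was 1.54 (Rrp12). The simulation therefore gives no recovery rate for differences of the size seen in the factors.

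The factors, roles and lists were chosen with earlier results of these data known, so lists are described by counts and medians. Values in each library and full statistics are given for factors with an adjusted or unadjusted p under 0.05 and, in each role, for the factor with the highest level per kilobase and those with the highest and lowest log2 fold change at a mean of at least 1 CPM. Bop1, Pes1 and the shorter complexes were otherwise named after their values were seen. Alternatives were library-size scaling, DESeq2 size factors, 2 other filters on low counts, DESeq2 1.42.0, limma-voom (limma 3.58.1), removal of mitochondrial genes, a replicate block, and leaving out each library.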

Additional observations from a re-analysis of the deposited data

How the results depend on the processing

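With 2 libraries a group, counts of calls moved with the setting more than medians did. Over all genes 192 passed the threshold; library size alone gave 105, the DESeq2 Wald test 55, and leaving out 1 library between 44 and 614. Of the 49 factors 1 passed; library size alone gave 0, DESeq2 gave 0, and leaving out 1 library between 0 (without either knockdown library) and 2 (Rrp15 and Nop16, without shControl replicate 1). The 138 related genes had 0 calls except without shControl replicate 1 (4) or replicate 2 (3). Factors with separated libraries in either direction numbered 24, or 48.98%, beside 41.253% of all tested genes. With 1 library left out they numbered 33 to 39, where 3 libraries separate more easily. The share over all tested genes is not given for those settings, so the counts of 33 to 39 have no comparison. The factors' median of 0.11 became 0.19 with library size alone, which moved the median of all genes from -0.01 to 0.07, and 0.15 in limma-voom, and lay between 0.13 and 0.16 with 1 library left out. The related genes' median of 0.09 became 0.17 with library size alone.

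The labels give both groups replicate numbers 1 and 2 but no pairing, and the deviations of the libraries numbered 1 had a correlation of -0.0527. With the replicate number as a block, 172 genes passed, among them Rrp15 as the 1 factor.

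Of the single factors, 20 changed sign in some setting, none of them past the threshold in any. With library size alone Ncl was at 0.031, Nol6 0.040, Pes1 0.068, Polr1e 0.020, Rrp1 0.014, Rrp7a 0.015, Utp14b 0.075 and Utp20 0.056. Pes1 was also above 0 in DESeq2 (0.0023), with DESeq2 size factors (0.0048) and with the block (0.011), and Utp14b in limma-voom (0.0039). With 1 library left out, the lowest and highest values were Ncl -0.17 to 0.12, Nol3 -0.064 to 0.23, Nol4 -0.00033 to 0.056, Nol6 -0.42 to 0.22, Nop10 -0.13 to 0.25, Nop14 -0.40 to 0.025, Nop2 -0.25 to 0.077, Nop53 -0.30 to 0.14 and Npm1 -0.079 to 0.26. For the others they were Pes1 -0.19 to 0.25, Polr1b -0.21 to 0.39, Polr1e -0.16 to 0.044, Rrp1 -0.28 to 0.24, Rrp8 -0.14 to 0.40, Utp14b -0.39 to 0.26, Utp20 -0.31 to 0.18, Utp23 -0.044 to 0.11, Utp3 -0.17 to 0.26 and Utp6 -0.038 to 0.19. The cause of these changes was not tested.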
